A study of Mus musculus with 8 samples.

Results

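The retinas with little Nxnl1 transcript were compared with all the others, irrespective of their genotype label. Nxnl1 is a photoreceptor gene for the rod-derived cone viability factor, which resembles thioredoxins, and the study asked what its loss does to the retinal transcriptome. The arrays were chosen by their own measurement. An array was called low where the brighter of the Nxnl1 probe sets had a log2 level under 7.5, and 3 of the 8 arrays were low. These were ko/ko 1, ko/ko 3 and ko/wt 2. The other 5 arrays were wt/wt 1, wt/wt 2, wt/wt 3, ko/wt 1 and ko/ko 2, and are called high. In the labels, wt/wt means wild type, ko/wt a heterozygote and ko/ko a homozygote for an Nxnl1 null allele. ko/wt 2 was therefore low although labelled heterozygous, and ko/ko 2 was high although labelled homozygous null. All animals were 40 days old, of the strain labelled BALB/c AJ, kept under cyclic light without a drug or other treatment, and each retina was freed of the pigment epithelium. How the allele was made is not given in the sources used here. The labels do not state whether different animals gave the arrays of a group, so a p-value here reflects the scatter of these 8 samples and that scatter may be technical.

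Photoreceptors are the light-sensing neurons of the retina, with rods serving dim light and cones serving colour and daylight vision. Nxnl1 and its paralog Nxnl2 each give rise to a short secreted form that sustains cones and a longer thioredoxin-like form linked to redox defence. When photoreceptors are stressed, they can release endothelin 2 and cytokines of the leukemia inhibitory factor family. Müller glia, the radial support cells of the retina, answer through STAT3 and raise the intermediate filament protein GFAP, and microglia, the resident macrophages, become active.

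Values are log2 levels made by RMA, which corrects background, equalises the distributions of the arrays and combines the probes into 1 value per probe set, so that 1 unit is a doubling and levels of different probe sets cannot be compared. Each set of values below lists the low arrays in the order ko/ko 1, ko/ko 3 and ko/wt 2, and the high arrays in the order wt/wt 1, wt/wt 2, wt/wt 3, ko/wt 1 and ko/ko 2. Of the 45101 probe sets, 45035 were tested after 64 control probe sets and the 2 probe sets of Nxnl1 were left out. The mean level of the rod phototransduction markers was 12.20 to 12.39 on the low arrays and 12.19 to 12.41 on the high ones, so rod transcripts were abundant on all 8 arrays. The arrays correlated with each other at 0.979 or more, and on each of the first 4 principal components the low and high arrays overlapped. The difference between the 5' and the 3' actin control probe sets, which falls where RNA is more degraded, was -1.74, -1.26 and -0.71 on the low arrays and -1.81, -1.04, -0.80, -0.90 and -0.69 on the high ones. The Y-linked gene Eif2s3y was at 7.07 to 7.77 on the low arrays, at 3.46 and 3.32 on wt/wt 1 and wt/wt 2, and at 8.73 to 9.14 on the other high arrays. Little Y-linked signal was thus seen only on wild-type-labelled high arrays. By this gene, sex was unevenly spread over the low and high arrays and over the labels. The part of sex in the differences was not tested.

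The Nxnl1 levels that chose the arrays are a description and test nothing. They were 6.13, 6.13 and 6.75 on the low arrays and 9.22, 8.87, 8.65, 8.65 and 8.76 on the high ones. The threshold lay in a gap of 1.90 between 6.75 on ko/wt 2, just inside it, and 8.65 on ko/wt 1, just outside. The second Nxnl1 probe set was at 5.47, 5.56 and 5.48 on the low arrays and at 6.21, 6.76, 6.70, 6.79 and 6.62 on the high ones. Both probe sets placed ko/wt 2 with the low arrays and ko/ko 2 with the high ones. The mean differences, low minus high, were -2.49 and -1.11. Where the deleted part of the gene lies relative to these probes is not given in the sources used here.

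Nxnl2, the paralog of Nxnl1, was at 11.18, 11.19 and 11.23 on the low arrays and at 11.58, 11.88, 11.65, 11.60 and 11.79 on the high ones by its brighter probe set. The arrays did not overlap, and the 3 low arrays lay within a narrower range than the 5 high ones. The difference was -0.50 (SE 0.09), or 1.42-fold lower, with an adjusted p of 0.323 in limma over all probe sets, so it did not pass. An exact two-sided permutation test of this single value over the 8 arrays gave p = 0.0179, the smallest that 56 arrangements allow. That p follows from the lack of overlap and is no separate support. Of all genes, 1.77% were lower without overlap. The second Nxnl2 probe set differed by -0.51 (SE 0.15), and there ko/ko 3 at 8.56 overlapped wt/wt 1 at 8.48. The difference was -0.50 against the wild-type-labelled arrays and -0.50 against the 2 high arrays labelled mutant.

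**Figure D1:**
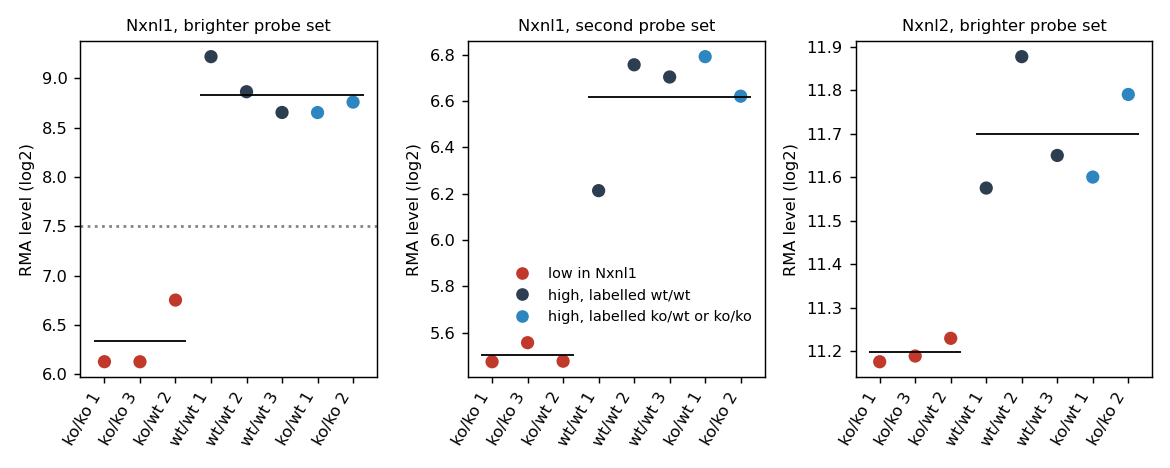
Log2 RMA level of both Nxnl1 probe sets and of the brighter Nxnl2 probe set on each of the 8 arrays; each point is 1 array, horizontal lines are group means and the dotted line is the threshold of 7.5 that chose the arrays. The 3 low arrays sit at 6.13 to 6.75 for Nxnl1 and at 11.18 to 11.23 for Nxnl2, below every high array.

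Of all probe sets tested, 4 passed (adjusted p under 0.05 in limma's moderated test with Benjamini-Hochberg adjustment), which is 0.00888%, and all 4 were higher on the low arrays. They stood for Nudt6, Lrrc2, Rdh9 and Gckr. None passed in the lower direction, while 1441 higher and 1126 lower probe sets had an unadjusted p under 0.05. A further 5 probe sets had an adjusted p under 0.1, which brought that count to 9. Probe sets that differed at least 2-fold with no overlap between the arrays numbered 18 higher and 1 lower. The count of 4 depended on single arrays: it was 16 without wt/wt 1, 5 without wt/wt 3, 1 without wt/wt 2 and 0 without any 1 of the other 5 arrays. With the 2 Nxnl1 probe sets kept in the adjustment, 8 probe sets of other transcripts passed, 7 of them higher.

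Nudt6, a nudix hydrolase gene that lies in antisense orientation to the growth factor gene Fgf2, was at 9.20, 9.18 and 9.20 on the low arrays and at 7.76, 7.73, 8.14, 7.64 and 7.66 on the high ones. The 3 low arrays were nearly equal, and wt/wt 3 stood above the other high arrays. The transcript rose by 1.41 (SE 0.11), or 2.66-fold, with an adjusted p of 0.0103 in limma. Its second probe set differed by only 0.13, so the rise was seen by 1 of 2 probe sets. RefSeq's Nudt6 locus overlaps that of Fgf2, and the Fgf2 probe set was at 3.40, 3.45 and 3.75 on the low arrays and 3.13 to 3.69 on the high ones, close to the floor of the scale.

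Lrrc2, which encodes a leucine-rich repeat protein, was at 8.54, 8.70 and 8.43 on the low arrays and at 7.36, 7.52, 7.14, 7.30 and 7.24 on the high ones. The gap between the lowest low and the highest high array exceeded the spread within either group. It rose by 1.24 (SE 0.10), or 2.36-fold, with an adjusted p of 0.0103 in limma, and its second probe set differed by 0.96 without overlap.

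Rdh9, a short-chain dehydrogenase of the retinol dehydrogenase family, was at 7.31, 7.33 and 7.08 on the low arrays and at 5.84, 6.15, 6.08, 6.09 and 6.2 on the high ones. It rose by 1.17 (SE 0.10), or 2.24-fold, with an adjusted p of 0.0119 in limma. The probe set is of a type that can match several family members, so which of the near-identical Rdh transcripts was read is uncertain. In the list of retinol dehydrogenases and retinoid handling genes, Rdh9 was the only 1 of 19 to pass. Rdh1, the next in that list by p, was at 4.79, 4.94 and 4.65 against 4.39 to 4.56, a difference of 0.30 (SE 0.09) that did not pass.

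Gckr, the regulator that holds glucokinase inactive in liver, was at 10.05, 10.17 and 10.06 on the low arrays and at 8.47, 8.99, 9.00, 8.92 and 9.00 on the high ones. It rose by 1.22 (SE 0.13), or 2.33-fold, with an adjusted p of 0.0406 in limma. wt/wt 1 was the lowest of the high arrays, and without it the difference was 1.12. Among 20 measured genes of glycolysis and of glucose and lactate transport none passed, 8 differed by more than 0 and the median difference was -0.04.

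The next genes by p, led by Edn2, narrowly missed the threshold. The 250 bases before the start of the 4 genes that rose and of Edn2 are shown because these genes head the comparison. They are RefSeq sequences of the build GRCm38.p6, each on the strand of its gene, 5′ to 3′, and capitals mark the AP-1 motif TGANTCA where it occurs. They lie at chr3:37419597-37419846 on the minus strand for Nudt6, and on the plus strand at chr9:110951295-110951544 for Lrrc2, chr10:127776155-127776404 for Rdh9, chr5:31297313-31297562 for Gckr and chr4:120160956-120161205 for Edn2.
Nudt6: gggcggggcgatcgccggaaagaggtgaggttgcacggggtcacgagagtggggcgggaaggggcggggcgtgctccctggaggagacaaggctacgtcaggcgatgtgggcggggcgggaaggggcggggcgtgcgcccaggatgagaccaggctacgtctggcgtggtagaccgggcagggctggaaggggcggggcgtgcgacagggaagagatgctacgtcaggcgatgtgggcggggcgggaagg
Lrrc2: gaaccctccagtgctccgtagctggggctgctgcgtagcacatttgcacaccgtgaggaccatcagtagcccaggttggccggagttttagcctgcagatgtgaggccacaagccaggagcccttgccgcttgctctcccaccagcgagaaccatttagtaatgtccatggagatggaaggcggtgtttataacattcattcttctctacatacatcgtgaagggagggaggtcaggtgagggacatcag
Rdh9: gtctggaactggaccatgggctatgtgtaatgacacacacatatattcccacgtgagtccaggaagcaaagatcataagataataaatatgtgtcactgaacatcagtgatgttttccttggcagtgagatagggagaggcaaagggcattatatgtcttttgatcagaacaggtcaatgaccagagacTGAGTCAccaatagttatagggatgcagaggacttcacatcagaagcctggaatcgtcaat
Gckr: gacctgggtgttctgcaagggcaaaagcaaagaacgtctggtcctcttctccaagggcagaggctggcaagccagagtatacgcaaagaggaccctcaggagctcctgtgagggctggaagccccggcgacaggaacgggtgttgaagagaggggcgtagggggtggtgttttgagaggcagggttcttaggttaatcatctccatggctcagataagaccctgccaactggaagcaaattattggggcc
Edn2: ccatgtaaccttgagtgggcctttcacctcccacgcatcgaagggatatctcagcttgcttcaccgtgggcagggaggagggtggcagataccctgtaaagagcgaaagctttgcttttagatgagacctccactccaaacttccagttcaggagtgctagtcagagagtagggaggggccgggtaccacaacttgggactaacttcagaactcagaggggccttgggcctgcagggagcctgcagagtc

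A search of both strands of these windows used the letters TTCNNNGAA for a STAT motif and TGANTCA for AP-1. The STAT letters were present in 7.02% and the AP-1 letters in 6.75% of 32851 promoters of the same length in RefSeq's table. Of the 24 genes named for the size or rank of their difference, 21 matched the table. None of the 21 held the STAT letters, and 1 of them, Rdh9, held the AP-1 letters, from 61 bases before the start. These counts describe letters in 250 bases and say nothing of the binding of a factor.

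Edn2, the gene of endothelin 2, had the greatest difference of the 24 genes. It was at 7.63, 8.68 and 8.18 on the low arrays and at 4.38, 5.06, 6.03, 5.36 and 4.96 on the high ones. The arrays did not overlap, as the choice of these genes required, and wt/wt 3 was the highest and wt/wt 1 the lowest of the high ones. The difference was 3.01 (SE 0.34), or 8.04-fold, with an adjusted p of 0.0564 in limma. It was 2.75 to 3.27 when any 1 array was left out, 3.01 against the wild-type-labelled arrays and 3.01 against the high arrays labelled mutant.

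Cebpd, a transcription factor of the acute-phase response, was at 8.26, 8.34 and 8.17 on the low arrays and at 7.21, 6.58, 7.06, 6.64 and 6.38 on the high ones. The difference was 1.48 (SE 0.18), or 2.79-fold, with an adjusted p of 0.0637 in limma. The second Cebpd probe set differed by only 0.20 (SE 0.09), with overlap. Stat3, the transcription factor downstream of the gp130 cytokine receptors, was at 9.00, 9.09 and 9.12 on the low arrays and at 8.5, 8.56, 8.59, 8.64 and 8.51 on the high ones. The difference was 0.51 (SE 0.07), with an adjusted p of 0.153. The brightest Stat3 probe set differed by 0.46 (SE 0.14), and there ko/ko 1 at 9.48 lay among the high arrays, at 9.34 to 9.54.

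Edn2 and Cebpd belong to a list of 29 genes of retinal stress and gliosis, of which 26 were measured. Of these, 24 differed by more than 0, the median difference was 0.31, and 9 were higher without overlap between the arrays, against 3.06% of all 18192 genes. None was lower without overlap, against 1.77% of all genes. At an unadjusted p under 0.05, 12 were higher, against 4.45% of all genes, and 0 lower, against 1.96%; no member passed limma's adjusted threshold. Over all genes the median difference was 0.03 and 60% were above 0. The mean level of the list was 7.46 to 7.67 on the low arrays and 7.0 to 7.29 on the high ones.

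Gfap, the filament gene of reactive Müller glia and of astrocytes, was at 7.27, 7.17 and 7.15 on the low arrays and at 6.84, 6.37, 6.54, 6.28 and 6.57 on the high ones. The arrays did not overlap, and wt/wt 1 was the highest of the high ones. The difference was 0.67 (SE 0.12), with an adjusted p of 0.345 in limma. Nupr1, a small stress-response chromatin protein, was at 7.19, 6.35 and 6.50 against 6.24, 5.88, 5.73, 5.96 and 6.04, a difference of 0.71 (SE 0.19) that was 0.46 without ko/ko 1. The other members without overlap were Serpina3n and Lcn2, acute-phase genes of reactive glia, Il6st, the gp130 receptor subunit, Vim, a glial filament gene, and Cp, a ferroxidase of glia, with differences of 0.30 to 0.59. That of Lcn2 was 0.59, and 0.33 without ko/ko 1. Lif, Socs3 and Timp1, named after their values were seen because they are standard readouts of this pathway, differed by 0.19, 0.05 and -0.0021.

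A list of 28 measured genes of the interferon response and antigen presentation had 26 members above 0 and a median difference of 0.25, which was 0.16 without ko/ko 1. Without overlap between the arrays, 5 were higher, against 3.06% of all genes, and 0 lower, against 1.77%. At an unadjusted p under 0.05, 14 were higher, against 4.45% of all genes, and 0 lower, against 1.96%. None passed the adjusted threshold in limma. The mean level of the list was 6.40 to 6.66 on the low arrays and 6.23 to 6.34 on the high ones.

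Bst2, the membrane tether of enveloped viruses that interferons induce, was at 6.25, 6.37 and 6.40 on the low arrays and at 5.69, 5.90, 5.90, 5.89 and 5.97 on the high ones. The difference was 0.47 (SE 0.08), with an adjusted p of 0.323. B2m, the light chain of class I molecules, was at 8.83, 8.40 and 9.09 against 8.21, 8.21, 7.92, 8.11 and 7.90, a difference of 0.70 (SE 0.15). The class I heavy chain gene H2-K1 differed by 0.42 (SE 0.10) and Irf9, which joins the STATs in the interferon-stimulated complex, by 0.30 (SE 0.08). H2-D1, another class I heavy chain gene, was at 9.02, 8.72 and 8.96 against 8.29, 8.31, 8.15, 8.36 and 8.27 by its probe set of smallest p. That difference was 0.62 (SE 0.09), with an adjusted p of 0.170, and 8 of 9 H2-D1 probe sets had the same direction. The brightest H2-D1 probe set differed by 0.61 (SE 0.18), and there ko/ko 3 at 8.59 lay below ko/wt 1 at 8.73. Class I genes are near-identical, so signal can be shared among them. The class II genes H2-Aa, H2-Ab1 and H2-Eb1, named after their values were seen, differed by -0.01, 0.07 and -0.02.

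Of the 14 genes of these 2 lists that were higher without overlap, 13 matched the RefSeq promoters. Of the 13, 2 held the STAT letters, Nupr1 and Bst2, against 7.02% of all promoters. The AP-1 letters were held by 1, Cp, against 6.75%. These are counts of letters, and binding of a factor was not tested. The STAT matches are shown in windows of 30 bases, on the gene's strand, with the motif in capitals. The windows lie at chr7:126625579-126625608 for Nupr1 and chr8:71537589-71537618 for Bst2, both on the minus strand of GRCm38.p6. The motifs in them begin 128 and 136 bases before the start of the gene.
Nupr1: atgggcccagTTCTGGGAAagggccagatt
Bst2: tctaggggcaTTCCAGGAAaatgaaactga

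The complement list had 13 measured genes, of which 11 were above 0 with a median difference of 0.14. That median was 0.08 without ko/ko 1, 0.09 without ko/wt 1 and 0.04 when all probe sets of a gene were averaged. The list had 4 members higher without overlap, against 3.06% of all genes, and 0 lower, against 1.77%. Serping1, the inhibitor of the first complement component, was at 6.67, 6.61 and 6.2 on the low arrays and at 5.87, 5.59, 5.62, 5.90 and 6.08 on the high ones, a difference of 0.68 (SE 0.14, adjusted p 0.563 in limma). C1qa and C1qc, which encode chains of the recognition molecule C1q and are made by microglia, differed by 0.56 (SE 0.15) and 0.66 (SE 0.18). The third chain gene, C1qb, differed by 0.14 (SE 0.12) with overlap. Cd59a, a membrane inhibitor of complement lysis, differed by 0.41 (SE 0.12).

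Markers of microglia and macrophages were also mostly above 0. Of 19 measured, 18 were above 0, the median difference was 0.13, 2 were higher without overlap, against 3.06% of all genes, and the mean level was 6.0 to 6.29 on the low arrays and 5.91 to 6.11 on the high ones. The median was 0.08 without ko/wt 1 and 0.21 without ko/ko 3. Cd68, a lysosomal protein of phagocytes, differed by 0.34 (SE 0.11), Ctss, a lysosomal protease, by 0.50 (SE 0.18), Csf1r, the growth factor receptor of microglia, by 0.34 (SE 0.12) and Fcgr3, an Fc receptor, by 0.29 (SE 0.11). The defining markers P2ry12, Tmem119 and Cx3cr1, named for that reason, differed by 0.26, 0.07 and 0.01 with overlap. None passed in limma, and in whole retina more cells of a type and more RNA per cell cannot be told apart. The part of microglia in the complement and interferon values was not tested.

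**Figure D2:**
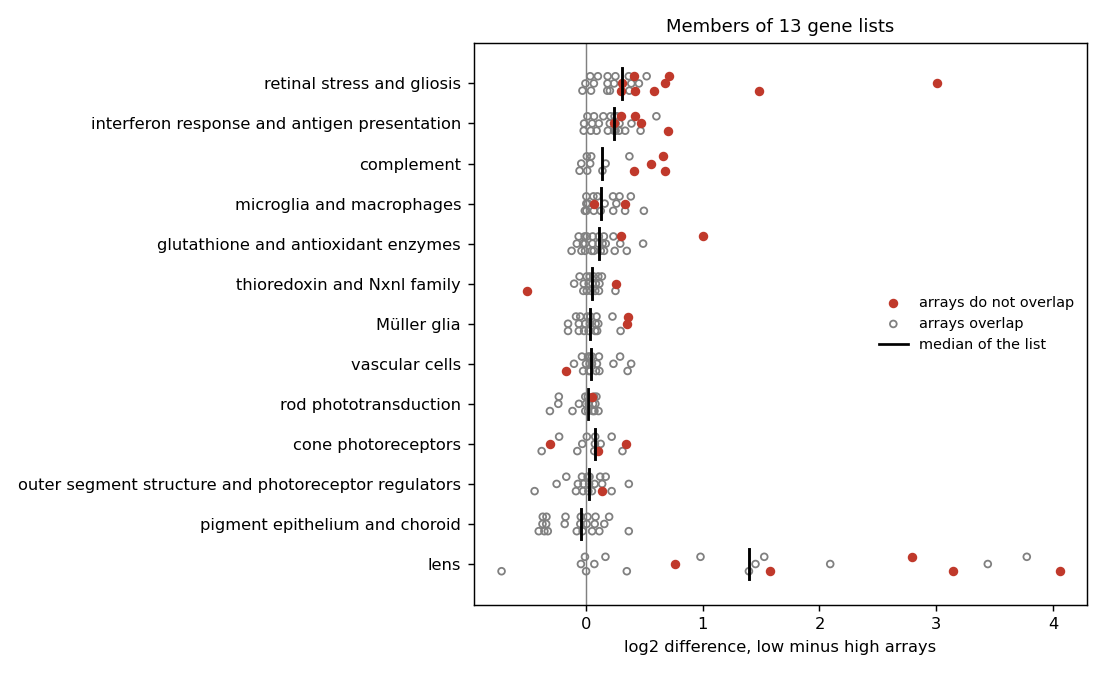
Difference in log2 level, low minus high arrays, for each measured member of 13 of the gene lists; each point is 1 gene, filled where the 3 low and 5 high arrays do not overlap, and the black bar is the list's median. Stress and gliosis (median 0.31), interferon and antigen presentation (0.25) and lens (1.40) lie to the right of 0, while rod phototransduction (0.02) and Müller glia (0.04) centre near 0.

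The remaining genes with the smallest p in the higher direction had other known roles. Krt18, a keratin of simple epithelia, was at 11.10, 10.80 and 10.74 on the low arrays and at 10.01, 10.13, 9.98, 9.96 and 10.10 on the high ones, a difference of 0.84 (SE 0.10) with an adjusted p of 0.0564 in limma. Sox30, a transcription factor of male germ cells, was at 7.92, 7.85 and 7.94 against 6.16, 6.49, 6.79, 6.33 and 6.88, a difference of 1.37 (SE 0.16) with the same adjusted p of 0.0564. Both genes were chosen for having no overlap between the arrays, and 3.06% of all genes were higher without overlap. Prkaa2, a catalytic subunit of the energy sensor AMPK, differed by 0.59 (SE 0.08), but its second-brightest probe set overlapped, with ko/ko 1 at 8.05 below all high arrays. Zfp469, a zinc finger gene, differed by 0.92 (SE 0.13), from 7.28, 6.67 and 6.77 against 5.86 to 6.10, and ko/ko 1 was the highest.

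In the lower direction the 12 genes of smallest p with a difference of at least 0.5 and no overlap are described, and none passed, with adjusted p-values in limma of 0.323 or more. Fabp4, a fatty acid carrier of adipocytes, macrophages and capillary endothelium, was at 5.88, 6.41 and 5.72 on the low arrays and at 6.81, 7.60, 7.09, 7.01 and 7.34 on the high ones. The difference was -1.17 (SE 0.20), or 2.24-fold lower, and all 4 Fabp4 probe sets were lower on the low arrays without overlap. The vascular list, whose 20 measured markers include endothelial and mural cell genes, had a median difference of 0.05, which was -0.05 without ko/ko 1, 0.11 without ko/wt 2 and 0.15 without ko/ko 3. It had 0 members higher and 1 lower without overlap, against 3.06% and 1.77% of all genes. That 1 was Eng, a co-receptor of endothelium, at -0.17 (SE 0.09).

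Smug1, a uracil DNA glycosylase of base excision repair, was at 10.67, 11.11 and 10.76 on the low arrays and at 11.29, 11.54, 11.39, 11.54 and 11.44 on the high ones, a difference of -0.59 (SE 0.11). Xiap, an inhibitor of caspases, differed by -0.62 (SE 0.14) at 1 probe set and by -0.25 (SE 0.10) at its brightest one. Its other probe sets differed by -1.12 to 0.10, all with overlap. Azi2, an adaptor of the kinase TBK1, differed by -0.62 (SE 0.14) and Col4a4, a basement membrane collagen chain, by -0.59 (SE 0.15). A second Azi2 probe set differed by -0.23, and further Col4a4 probe sets by -0.38 and -0.34, all with overlap. Wdr31, a WD-repeat gene, differed by -0.84 (SE 0.17), and at its second probe set the low arrays were at 7.44, 7.65 and 7.86 against 7.74 on wt/wt 1 and 8.73 to 9.28 on the other high arrays. Fbxw2, a ubiquitin ligase subunit, and Gtf2e1, a subunit of a general transcription factor, differed by -0.70 and -0.60, but the brightest probe set of each differed in the other direction. Without ko/ko 1, Gtf2e1 differed by only -0.35. Fndc1, Fam133b and Srpx made up the 12, with differences of -0.52 to -0.61. A second Fndc1 probe set differed by -0.03, and a pair of further Fam133b probe sets by -0.01 and -0.12, all with overlap.

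**Figure D3:**
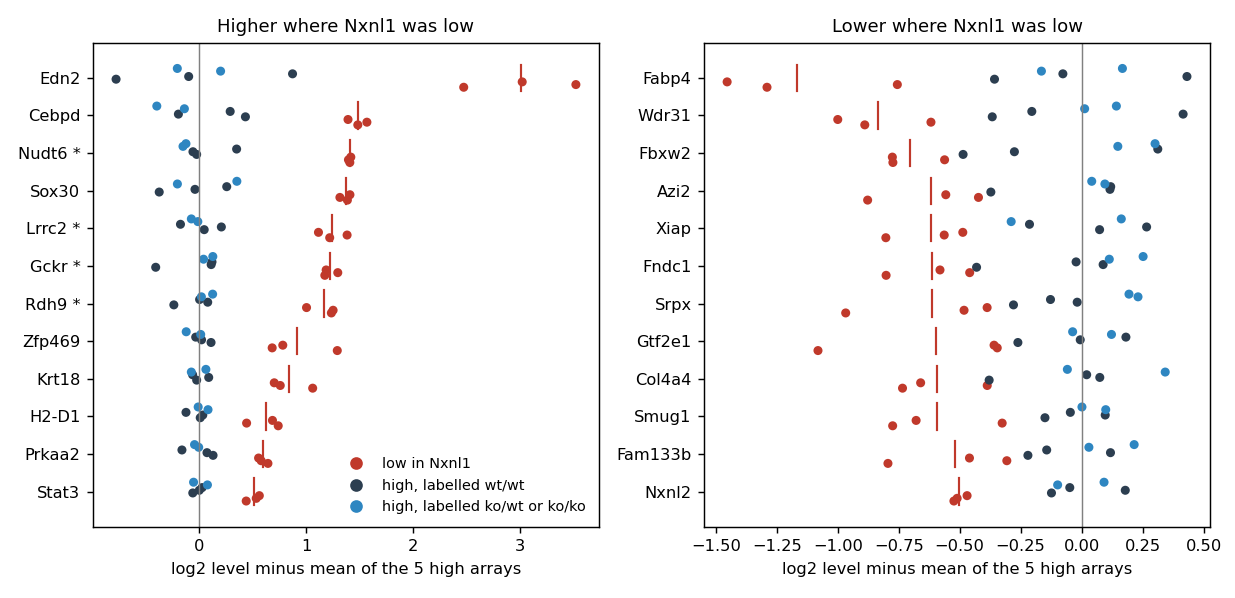
Log2 level minus the mean of the 5 high arrays for the 12 genes named as higher (left) and the 12 named as lower (right) where Nxnl1 was low; each point is 1 array, red bars are the means of the 3 low arrays, and an asterisk marks the 4 genes past the adjusted threshold. Edn2 lies farthest out at 3.01. The genes were chosen for having no overlap between low and high arrays, so the gap seen in each is given by that choice.

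The high arrays labelled mutant were also set against the wild-type-labelled ones. Between ko/wt 1 with ko/ko 2 and the 3 wild-type-labelled arrays, 0 probe sets passed in limma, the smallest adjusted p was 0.998, and 1279 had an unadjusted p under 0.05. ko/wt 2, the low array labelled heterozygous, lay between ko/ko 1 and ko/ko 3 for 10 of the 24 genes, nearer to the high mean than both for 8 and farther from it than both for 6. These genes were chosen for having no overlap, so the place of ko/wt 2 outside the high arrays is given by that choice. With the low arrays set against only the wild-type-labelled arrays, or only the high arrays labelled mutant, 0 probe sets passed, at smallest adjusted p-values of 0.0877 and 0.0783.

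Genes of the photoreceptors themselves had medians near 0. Of 19 rod phototransduction genes 12 were above 0, and the median difference was 0.02. The sign of that median turned in 4 of 23 alternative analyses. The fit without ko/wt 2 is counted there both as that omission and as low arrays labelled ko/ko only. Of the rod genes 0 had an unadjusted p under 0.05, against 4.45% of all genes higher and 1.96% lower. Without overlap 1 rod gene was higher and 0 lower, against 3.06% and 1.77% of all genes. Among 14 cone genes 9 were above 0, and the median difference was 0.08, which was 0.04 without ko/wt 1, 0.05 without wt/wt 1 and 0.05 without ko/ko 3. Without overlap, 2 were higher and 1 lower, against 3.06% and 1.77% of all genes. Opn1sw, the short-wave cone opsin, was at 12.62, 12.64 and 12.76 on the low arrays and at 12.27, 12.22, 12.52, 12.36 and 12.30 on the high ones, a difference of 0.34 (SE 0.09, adjusted p 0.763 in limma). Gulo, listed here as a cone marker, differed by -0.30 (SE 0.09), and Gnat2, the cone transducin subunit, by 0.11 (SE 0.07). Opn1mw, the middle-wave cone opsin, was named after its values were seen and differed by -0.03 (SE 0.12). Its 95% interval was -0.31 to 0.25, which limits the size of a difference at this number of arrays.

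Of 20 genes for outer segment structure and photoreceptor regulation, 12 were above 0, 2 were higher and 2 lower at an unadjusted p under 0.05, against 4.45% and 1.96% of all genes, and the median difference was 0.03. Rpgrip1, which anchors the RPGR protein in the connecting cilium, differed by -0.44 (SE 0.19), Rpgr by -0.25 (SE 0.11), Rp1l1, an axonemal protein gene, by 0.22 (SE 0.10) and the transcription factor gene Mef2c by 0.37 (SE 0.12), all with overlap. Without ko/ko 1, Rpgrip1 differed by -0.22 and Rpgr by -0.15. None passed in limma.

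Redox genes were examined because Nxnl1 belongs to the thioredoxin-like proteins. Of 20 measured thioredoxin, peroxiredoxin, glutaredoxin and Nxnl genes, 15 were above 0 and the median difference was 0.05, which was -0.03 without ko/ko 1 and 0.12 without ko/ko 3. Without overlap, against 1.77% of all genes lower and 3.06% higher, 1 was lower, Nxnl2, and 1 higher, Txnrd1, the cytosolic thioredoxin reductase, at 8.80, 8.64 and 8.56 against 8.48, 8.44, 8.53, 8.39 and 8.19, a difference of 0.26 (SE 0.10). Txn1 and Prdx2, named after their values were seen as abundant members, differed by 0.11 and 0.05. Of 27 glutathione and antioxidant genes, 19 were above 0, and 2 were higher without overlap, against 3.06% of all genes. Their median was 0.11, and it was 0.03 without ko/ko 1 and 0.07 without ko/wt 1. Gpx3, a secreted glutathione peroxidase, was at 7.83, 8.59 and 7.38 against 7.10, 6.89, 6.65, 7.11 and 6.88, a difference of 1.0 (SE 0.23, adjusted p 0.742 in limma) that was 0.67 without ko/ko 3. Sod3, the extracellular superoxide dismutase, differed by 0.30 (SE 0.09). Mgst1 and Srxn1, a microsomal glutathione transferase and sulfiredoxin, differed by 0.49 (SE 0.18) and 0.35 (SE 0.13) with overlap, and the Srxn1 difference was 0.19 without ko/ko 1.

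Müller glial identity genes had a median near 0. Of 21 measured, 13 were above 0 and the median difference was 0.04. Clu, the chaperone clusterin, was at 12.80, 12.62 and 12.66 on the low arrays and at 12.43, 12.34, 12.35, 12.25 and 12.29 on the high ones, a difference of 0.36 (SE 0.08), and Mlc1, a glial membrane protein gene, differed by 0.36 (SE 0.12). Both were free of overlap, as were 3.06% of all genes in that direction, and neither passed in limma. Rlbp1, the retinal binding protein of Müller glia, differed by -0.15 (SE 0.08). Of 12 astrocyte and oligodendrocyte genes, 7 were above 0 with a median of 0.03, and Gfap was the only member at an unadjusted p under 0.05.

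Crystallin transcripts, the main products of the lens and also transcribed in retina, had the highest median difference of the 30 lists. Of 19 measured lens genes, 16 were above 0, and the median difference was 1.40, which was 0.77 without ko/ko 1. Without overlap 5 were higher, against 3.06% of all genes, and at an unadjusted p under 0.05 9 were higher, against 4.45%. Cryaa, the alpha A crystallin gene, was at 11.72, 10.27 and 10.44 on the low arrays and at 9.34, 7.09, 5.77, 6.12 and 5.45 on the high ones, a difference of 4.05 (SE 0.80) with an adjusted p of 0.444 in limma. The spread among the high arrays was wide, with wt/wt 1 far above the other 4. Cryba2, a beta crystallin gene, was at 10.15, 8.55 and 8.93 against 7.91, 6.19, 5.06, 5.50 and 5.67, a difference of 3.14 (SE 0.60). Crybb2 differed by 2.79 (SE 0.64) and Cryab, the alpha B crystallin gene, by 1.58 (SE 0.35). Without wt/wt 1 the Cryaa difference was 4.70, with an adjusted p of 0.0149 in limma. That array had the highest Cryaa level of the high arrays, so leaving it out must raise the difference. This p is therefore no separate support, and Cryaa did not pass with all arrays. Leaving out ko/ko 1, the highest of the low arrays, gave the smallest Cryaa difference of all single omissions.

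Some of the gamma crystallin genes, which mark lens fibre cells, had another pattern. Crygb was at 8.5, 6.19 and 7.75 on the low arrays and at 10.80, 5.83, 4.67, 4.63 and 4.49 on the high ones, so the highest value of all 8 arrays was on wt/wt 1. The same array was highest for Cryga at 8.57, Crygd at 10.16 and Crygf at 9.85, and Cryga was at 4.21 or less on each of the others. Cryga, Crygb, Crygd and Crygf, named after their values were seen, differed by -0.72, 1.40, 1.45 and -0.04, each with overlap. Crygn, of the same list, was at 5.10, 4.29 and 3.83 against 3.50 to 3.77, a difference of 0.76 (SE 0.23) without overlap. Crygs differed by 3.44, and neither Crygn nor Crygs passed in limma with all arrays. The lens fibre membrane genes Mip and Lim2 were at 4.82 to 5.17 and at 4.98 to 5.71 over all arrays, with differences of 0.07 and 0.0035. The mean level of the lens list was 8.10, 6.78 and 7.15 on the low arrays and 7.90, 5.82, 5.30, 5.40 and 5.24 on the high ones. Its median difference was 0.71 against the wild-type-labelled arrays and 1.87 against the high arrays labelled mutant. The mean levels of the stress and interferon lists were also highest on ko/ko 1, and the part of lens material in their values was not tested. A fit without wt/wt 1 and ko/ko 1 was chosen after the data had been seen, because these arrays had the lowest actin difference. In it 28 probe sets passed. Edn2 differed by 3.08, Cebpd by 1.59 and Nudt6 by 1.40, each past the adjusted threshold, and Gfap by 0.72 (adjusted p 0.0823 in limma). In the same fit crystallin genes also passed, among them Cryaa at 4.25, Crygs at 3.77, Cryba2 at 3.13, Crybb2 at 2.83 and Cryab at 1.43. The mean lens level was still 6.78 and 7.15 on the remaining low arrays and 5.24 to 5.82 on the remaining high ones. This fit therefore does not test the part of lens material.

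**Figure D4:**
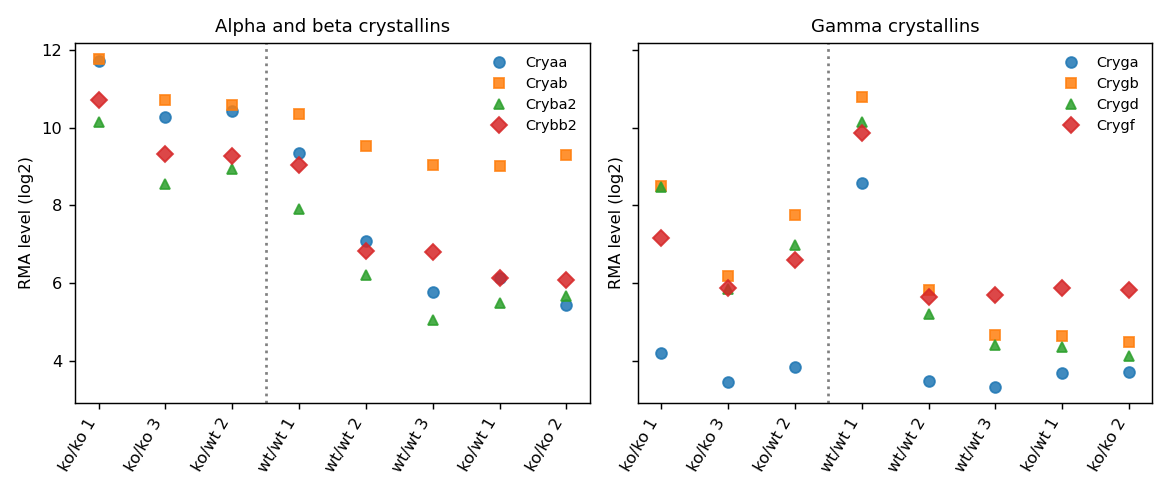
Log2 level of 4 alpha and beta crystallin genes (left) and 4 gamma crystallin genes (right) on each array; the dotted line separates the 3 low arrays from the 5 high ones. Cryaa lies at 10.27 to 11.72 on the low arrays and at 5.45 to 9.34 on the high ones, while the 4 gamma genes shown peak on wt/wt 1.

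Genes near Nxnl1 on chromosome 8, 25 on each side, had 38 of 50 members above 0 and a median difference of 0.10. That median was 0.05 without ko/ko 1 and 0.05 without both wt/wt 1 and ko/ko 1. Without overlap 3 of the 50 were higher and 0 lower, against 3.06% and 1.77% of all genes. Their mean level was 7.48 to 7.63 on the low arrays and 7.38 to 7.47 on the high ones. Bst2 is 1 of these neighbours. Haus8, a spindle protein gene, differed by 0.51 (SE 0.16) with overlap, Arrdc2, an arrestin domain gene, by 0.47 (SE 0.18) with overlap, and Pik3r2, a regulatory subunit of phosphoinositide 3-kinase, by 0.19 (SE 0.08) without it. None passed in limma. Over all chromosomes, 51 genes were higher and 10 lower by at least 0.5 without overlap, and chromosome 8 held 2 of the higher ones.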

How the data were processed

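Total RNA of whole retina was measured on 8 Affymetrix 3' expression arrays, 1 per sample. The authors deposited log2 values from RMA, as the submitters' processing notes name it. Which RMA version and options were used is not given in the sources used here. The series' design speaks of a sample more than was analysed here. Arrays were grouped by the Nxnl1 level, and low minus high was fitted to all 8 arrays with limma 3.58.1 in R 4.3.3 (lmFit and eBayes, 6 residual degrees of freedom, two-sided, Benjamini-Hochberg adjustment over 45035 probe sets, threshold 0.05), tested on simulated data. SE is limma's moderated error.

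Gene symbols came from the platform annotation: 34943 probe sets had 1 symbol, 932 several and 9160 none, and 34741 symbols were updated through the gene identifier to RefSeq names of GRCm38.p6. For lists, the probe set with the highest mean stood for each of 18192 genes. There were 30 lists with 649 entries, of which 593 were measured. Named were Nxnl1, Nxnl2, genes past the threshold without overlap and then those of smallest p with a difference of at least 0.5 and no overlap, up to 12 per direction, plus up to 4 members of smallest p in a list; uncharacterised transcripts and probe sets with several symbols were skipped. The members and lists were chosen with earlier results of these data known. Alternatives changed the normalization, filter, variance model, covariates, block or arrays.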

Additional observations from a re-analysis of the deposited data

Results flagged for a closer look

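Among the 5 high arrays, 1 array stood far from the others for 10 of 138 probe sets checked, by Dixon's ratio of the gap to the range; chance alone gives about 1 such gene in 20. The array was wt/wt 1 for 7 of them. Crybb2 was at 9.05 there, against 6.81 or less on the other high arrays. wt/wt 1 was low for Azi2 at 10.65, Bst2 at 5.69, Cngb1, a rod channel subunit gene, at 11.00, Gckr at 8.47, Luc7l, a splicing factor gene, at 8.93 and Pfkp, a glycolytic enzyme gene, at 11.28. Nudt6 was high on wt/wt 3 at 8.14, Son, a splicing cofactor gene, on ko/wt 1 at 13.19 and Ttbk2, a tau kinase gene, on wt/wt 2 at 9.25. Leaving out wt/wt 1 moved the Gckr difference from 1.22 to 1.12 and the Bst2 difference from 0.47 to 0.43, and leaving out wt/wt 3 moved the Nudt6 difference from 1.41 to 1.5.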

How the results depend on the processing

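The number of probe sets past the threshold was 4, and 3 with quantile normalization repeated, 6 with equal array medians and 4 with a robust prior. It was 8 among probe sets above the median level, 7 with an intensity trend, 20 with array weights, 25 with the actin difference as a covariate and 0 when the moderation was dropped for an ordinary test, where 2590 had an unadjusted p under 0.05. Against the wild-type-labelled arrays alone, against the high arrays labelled mutant alone and with the low arrays labelled ko/ko alone it was 0, with 1217, 3440 and 2999 probe sets at an unadjusted p under 0.05. Leaving out each array in turn gave 0 to 16. Leaving out ko/wt 2 is the same fit as keeping only the low arrays labelled ko/ko, so it is no separate result. Of the alternatives chosen after the data had been seen, keeping the Nxnl1 probe sets in the adjustment gave 8, leaving out wt/wt 1 and ko/ko 1, which had the lowest actin difference, gave 28, and leaving out ko/wt 2 and ko/ko 2, whose Nxnl1 level went against the label, gave 0 (smallest adjusted p 0.400, 1618 at an unadjusted p under 0.05). The cause of these changes was not tested. The replicate number as a block gave 2 calls, 1 of them shared with the 4. Same-numbered low and high arrays had correlations of their deviations of -0.22 to 0.63, and 3 of 8 arrays correlated best with their own number, so the numbers were not taken as pairs.

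For the 24 named genes and the second Nxnl2 probe set, 573 differences were computed under 23 alternatives. The genes were chosen for having no overlap between low and high arrays, so their sign is no measure of stability. Of these differences, 489 stayed on the same side of the threshold, 48 lost the call and 36 gained it. Nudt6 and Lrrc2 passed in 12 of 23, Rdh9 in 11, Edn2 in 10, Gckr in 9, Sox30 in 8, Krt18 in 6 and Cebpd in 5. Srpx and Gtf2e1 had no value under the filter on level. The medians of the stress, interferon, complement, microglia and lens lists stayed above 0 in all 23. So did those of other lists, among them cone photoreceptors, Müller glia and amacrine cells. The intensity trend, the robust prior and the ordinary test leave the differences unchanged, so they could not move a median. The precision is limited by the number of arrays, and without detection calls no probe set was removed for low signal.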

Other observations

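Other neurons and tissues of the eye were described by the same counts. Of 16 bipolar cell genes 11 were above 0, with 2 higher and 0 lower without overlap, against 3.06% and 1.77% of all genes. Their median was 0.06, and -0.03 without ko/ko 1. Cabp5, a calcium-binding protein gene of bipolar cells, was at 11.33, 11.23 and 11.27 on the low arrays and at 10.83 to 11.12 on the high ones, a difference of 0.28 (SE 0.08). Grik1, a kainate receptor gene, differed by 0.55 (SE 0.13), and by 0.39 without ko/ko 1. Amacrine genes were above 0 in 17 of 18 cases with a median of 0.16, which was 0.09 without ko/ko 1 and 0.25 without ko/ko 3. Ganglion cell genes were above 0 in 15 of 17 with a median of 0.13, which was -0.04 without ko/ko 1 and 0.23 without ko/ko 3. In both lists 0 members were free of overlap. Of 22 pigment epithelium and choroid genes 9 were above 0, with a median of -0.04 that was -0.18 without ko/ko 1 and 0.0020 without ko/ko 3. Aqp1, a water channel listed among cornea, iris and ciliary body genes, was at 10.54, 10.56 and 10.36 against 9.93 to 10.18, a difference of 0.44 (SE 0.08). Of 9 blood genes 1 was above 0. None of these genes passed in limma.

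Among 25 immediate early and growth response genes, 20 were above 0. Ccn2, a matricellular protein gene, was at 8.82, 8.88 and 8.64 on the low arrays and at 8.13, 8.08, 8.16, 7.94 and 7.58 on the high ones, a difference of 0.80 (SE 0.14, adjusted p 0.323 in limma). Of 22 clock genes 13 were above 0 with a median of 0.04, which was -0.0032 without ko/ko 3. At an unadjusted p under 0.05, 4 were higher and 2 lower, against 4.45% and 1.96% of all genes. Without overlap 1 was higher, against 3.06% of all genes, and 2 were lower, against 1.77%. The lower ones were Nr1d2, a nuclear receptor of the clock, at -0.21 (SE 0.07), and Drd4, a rhythmic dopamine receptor gene of photoreceptors, at -0.28 (SE 0.10). Splicing factor genes were above 0 in 6 of 24 cases, with a median of -0.12 that was -0.04 without ko/ko 1, -0.07 without wt/wt 3 and -0.21 without wt/wt 1. Of 16 genes of tau and its kinases, 15 were above 0 with a median of 0.11, and 0.06 without ko/ko 1. Of 23 heat shock and unfolded protein genes, 20 were above 0 with a median of 0.10, and 0.07 without ko/ko 2. Of 19 apoptosis genes 15 were above 0 with a median of 0.07, which was 0.03 without ko/ko 1 and 0.14 without wt/wt 1. Antxr2, a collagen receptor gene, S100a6, a calcium-binding protein gene, and Fscn2, a photoreceptor actin-bundling protein gene, were chosen after their values were seen and differed without overlap by 1.30 (SE 0.21), 1.24 (SE 0.27) and 0.58 (SE 0.12).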
